A study of Mus musculus with 2 samples.

Results

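The 7 genes described here, Gata6, Sox17, Gata4, Sox7, Foxa2, Hnf4a and Foxa1, encode transcription factors of primitive endoderm and of later endoderm, and were taken by name from a table of 13620 genes. All 7 were listed, each once, and all 7 reached 1 CPM (read counts scaled to a normalised library size) in at least 1 library. The study sequenced polyadenylated RNA from C57BL/6J mouse embryonic stem (ES) cells, with 1 library of genotype WT and 1 of genotype Fbxl10 T/T (WT cells and T/T cells below). Kdm2b is the current name of Fbxl10, and its protein brings a variant Polycomb complex to unmethylated CpG islands. What the T allele alters is not given in the sources used here. Both cultures were kept in serum with LIF on growth-arrested mouse fibroblast feeders, which were reduced by letting them settle before the cells were used. As there was 1 library per genotype, no difference between genotypes could be tested, and "higher" and "lower" describe these 2 libraries.

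Primitive endoderm is the layer that separates from the pluripotent epiblast in the late blastocyst and goes on to form the visceral and parietal endoderm of the yolk sac. FGF4 from epiblast precursors acts through FGF receptors and ERK to favour GATA6 over NANOG, and SOX17, GATA4 and SOX7 follow GATA6 as the layer forms. FOXA2 and HNF4A act in the visceral endoderm that comes from it, and FOXA1 serves later endoderm, among other tissues. Forced expression of GATA6, GATA4 or SOX17 turns ES cells towards extraembryonic endoderm.

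Stretches before the transcription start are shown for Foxa2, Hnf4a and Foxa1, and CG pairs are marked because the protein named in the genotype binds CpG pairs. RefSeq windows in GRCm38.p6 matched these 3 of the 7 genes. Gata6, Sox17, Gata4 and Sox7 had none. Each run reads 5′ to 3′ on the strand of its gene, lies before the start, leaves out annotated exon bases, and has every CG pair in capitals. Foxa2 has several starts. The outermost follows the first run (chr2:148046970-148047219, minus strand) and the next one inward follows the second (chr2:148045949-148046198, minus strand). The Hnf4a run lies at chr2:163506607-163506807 on the plus strand and the Foxa1 run at chr12:57546122-57546361 on the minus strand.
Foxa2 outer start: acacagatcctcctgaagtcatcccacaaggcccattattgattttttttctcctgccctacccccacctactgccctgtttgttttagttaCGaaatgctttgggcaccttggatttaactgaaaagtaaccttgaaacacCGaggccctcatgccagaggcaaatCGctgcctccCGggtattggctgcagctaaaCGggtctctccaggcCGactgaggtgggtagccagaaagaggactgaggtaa
Foxa2 inner start: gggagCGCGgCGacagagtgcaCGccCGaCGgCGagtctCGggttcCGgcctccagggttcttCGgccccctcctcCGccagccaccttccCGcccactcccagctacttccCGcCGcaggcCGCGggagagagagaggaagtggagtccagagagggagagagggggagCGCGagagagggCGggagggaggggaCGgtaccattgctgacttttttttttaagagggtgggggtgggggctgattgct
Hnf4a outer start: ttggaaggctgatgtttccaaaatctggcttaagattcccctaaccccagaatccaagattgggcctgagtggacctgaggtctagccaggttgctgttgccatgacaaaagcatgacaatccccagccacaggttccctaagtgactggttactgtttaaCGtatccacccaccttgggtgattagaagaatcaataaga
Foxa1: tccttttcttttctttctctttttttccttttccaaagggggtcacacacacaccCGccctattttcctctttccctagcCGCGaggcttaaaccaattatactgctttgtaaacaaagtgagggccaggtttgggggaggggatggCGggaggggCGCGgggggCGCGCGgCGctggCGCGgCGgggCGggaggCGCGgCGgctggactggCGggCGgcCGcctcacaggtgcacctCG

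CG pairs were counted in the windows of Foxa2, Hnf4a and Foxa1, and whether they bear on the direction of a gene was not tested. The 250 bases before the start held 21 CG pairs in Foxa1, the gene that was lower, and 20 at the inner start of Foxa2, a gene that was higher. Of all 32851 RefSeq windows of this length, 16.3% held at least 21 CG pairs and 17.9% at least 20. Hnf4a, which was also higher, held 3 CG pairs at its outer start and 4 at a second start inside the gene. The outer start of Foxa2 held 6, which was the median over all windows. A further start of Foxa2, not printed above, held 13, and 31.5% of windows held at least as many. A GATA motif (AGATAA or TGATAA on either strand) was found at this further start and at the outer start of Hnf4a. At Hnf4a it begins 52 bases before the start and runs into an annotated exon. The motif occurred in 16.6% of all windows. Of the forkhead motifs TGTTTAC and TATTTAC, held on either strand by 5.76% of windows, TGTTTAC was found in Foxa1. The SOX motif ACAAAG, searched with AACAAT and ACAATG on either strand, was found in Foxa1 and at the same further start of Foxa2, and 29.6% of windows held at least 1 of these forms. These are matches of letters, not measured binding.

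Kdm2b, the gene named by the genotype, was at 102.5 CPM in WT cells and 10.6 CPM in T/T cells, from 2449 and 262 reads. The libraries held 21198574 and 27109446 reads in the listed genes. Among the 13512 genes that reached 1 CPM, 14.8% were at least 2-fold higher and 20.6% at least 2-fold lower in T/T cells, and the median log2 ratio was 0.02. The split was 1994 higher and 2781 lower, and 1438 higher and 3254 lower when the T/T values were rescaled to the upper quartile of WT. All log2 ratios here are of CPM + 0.5, T/T over WT, which understates the ratios of low genes. Folds are ratios of CPM without this addition. Beside them stand exact 95% binomial intervals by the Clopper-Pearson method, which hold no error other than that of counting reads.

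Of the 7 genes, 6 were higher in the T/T library, by 5.87-fold to 14.4-fold, and 1, Foxa1, was lower. Their median log2 ratio was 3.43. The 2-fold rule therefore placed 6 of 7 above, where 14.8% of all genes lay, and 1 of 7 below, where 20.6% lay. In bulk RNA, more cells expressing a gene and more RNA per cell cannot be told apart.

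Gata6, the factor that acts first in the choice of primitive endoderm over epiblast, was at 59.96 CPM in WT cells and 652.9 CPM in T/T cells. It was thus well above the 3-read limit of 0.126 CPM in the WT library as well. The fold was 10.9 (counting interval 10.3 to 11.5), and 60 of the 13512 genes had a larger log2 ratio. The gene (ENSMUSG00000005836) lies on chromosome 18 from 11052508 to 11085633 in mm9.

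Sox17, an SRY-related factor needed for the layer to be maintained, was at 35.8 CPM in WT cells and 514.7 CPM in T/T cells. It had the largest fold of the 7 genes, 14.4 (13.4 to 15.4), and 26 genes had a larger log2 ratio. The gene (ENSMUSG00000025902) lies on chromosome 1 from 4481009 to 4487435 in mm9. Sox17 and Gata6 each share exon bases with a non-coding gene on the opposite strand in GENCODE M21, Gm37587 and 1010001N08Rik. Whether the counting used strand is not stated, so reads of the partners cannot be told apart.

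Gata4, which partners GATA6 in extraembryonic endoderm and is also a heart factor, was the most abundant of the 7 in both libraries, at 136.4 and 1478 CPM. The fold was 10.8 (10.5 to 11.2), close to that of Gata6. In T/T cells, 0.333% of genes had a higher CPM than Gata4, and in WT cells 11.5% did. The gene (ENSMUSG00000021944) lies on chromosome 14 from 63817752 to 63864097 in mm9.

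Sox7, a relative of SOX17 that comes later in primitive endoderm and is kept in parietal endoderm, was at 32.9 CPM in WT cells and 192.9 CPM in T/T cells. Its fold of 5.87 (5.44 to 6.34) was the smallest among the 6 higher genes, and 254 genes had a larger log2 ratio. The gene (ENSMUSG00000063060) lies on chromosome 14 from 64562511 to 64569569 in mm9.

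Foxa2, a forkhead factor of visceral endoderm that also marks definitive endoderm, node and floor plate, was at 22.2 CPM in WT cells and 267.1 CPM in T/T cells. The fold was 12.0 (11.0 to 13.1), and 46 genes had a larger log2 ratio. The gene (ENSMUSG00000037025) lies on chromosome 2 from 147868613 to 147872705 in mm9.

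Hnf4a, a nuclear receptor that drives apolipoprotein and other secretory genes in visceral endoderm and liver, was at 5.28 CPM in WT cells and 41.0 CPM in T/T cells. The fold was 7.77, with a wider interval of 6.45 to 9.43 because it rests on 126 and 1012 reads. It remained the least abundant of the 6 higher genes. The gene (ENSMUSG00000017950) lies on chromosome 2 from 163372923 to 163398646 in mm9.

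Foxa1, the later endoderm factor set beside the others as a contrast, was at 5.57 CPM in WT cells and 0.324 CPM in T/T cells, from 133 and 8 reads. It was 17.2-fold lower (8.47 to 40.6). In WT cells its level was near that of Hnf4a, and in T/T cells it approached the 3-read limit of 0.122 CPM. The gene (ENSMUSG00000035451) lies on chromosome 12 from 58641618 to 58647108 in mm9.

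**Figure D1:**
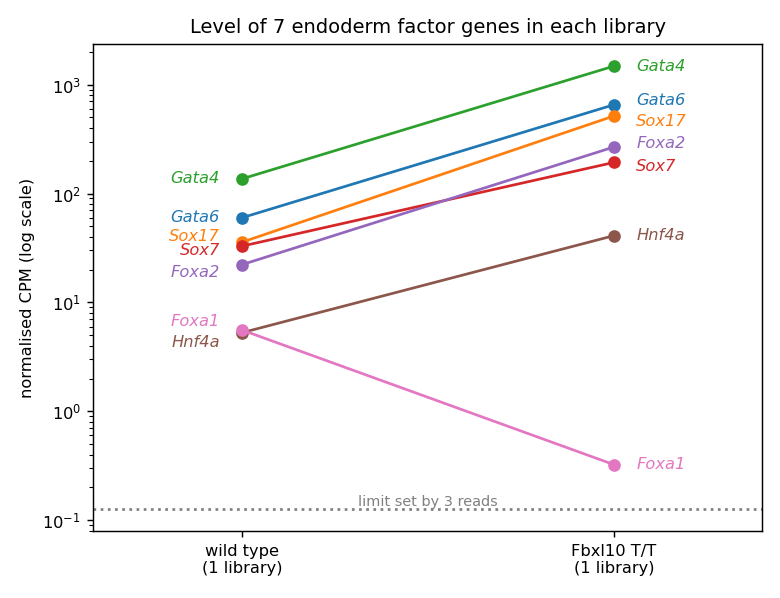
Normalised CPM on a log axis for each of the 7 genes, 1 point per library joined by a line, with the dotted line at the WT limit of 0.126 CPM set by 3 reads. The 6 lines from Gata4 to Hnf4a climb, and the line of Foxa1 drops from 5.57 to 0.324 CPM.

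The balance between 2 of these genes inside a library does not depend on how the libraries were scaled. Reads of Gata6 relative to Gata4 were the same in both libraries within counting error: the ratio in T/T cells divided by that in WT cells was 1.0 (conditional exact 95% interval 0.942 to 1.07). Per kilobase of exon, Gata6 stood at 0.264 of Gata4 in WT cells and 0.265 in T/T cells. Gata6 against Foxa2 was the other of the 21 pairs whose interval held 1, at 0.906 (0.816 to 1.01).

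The SOX pair shifted the most among the 6 higher genes. Per kilobase of exon, Sox17 was at 0.752 of Sox7 in WT cells and 1.84 of it in T/T cells, a 2.45-fold shift (2.21 to 2.72). The size of this shift does not depend on the length used, whereas which of them ranked higher in WT cells does. Hnf4a lost ground to Sox17 (1.85-fold, 1.51 to 2.26) and to Gata6 (1.4-fold, 1.15 to 1.70) and gained on Sox7, with Sox7 over Hnf4a at 0.755 of its WT value (0.613 to 0.925). The forkhead pair diverged, with Foxa2 at 5.60 times Foxa1 per kilobase in WT cells and 1160 times in T/T cells. Cultures grown in parallel were not measured here, so whether such shifts exceed the variation between cultures was not tested.

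**Figure D2:**
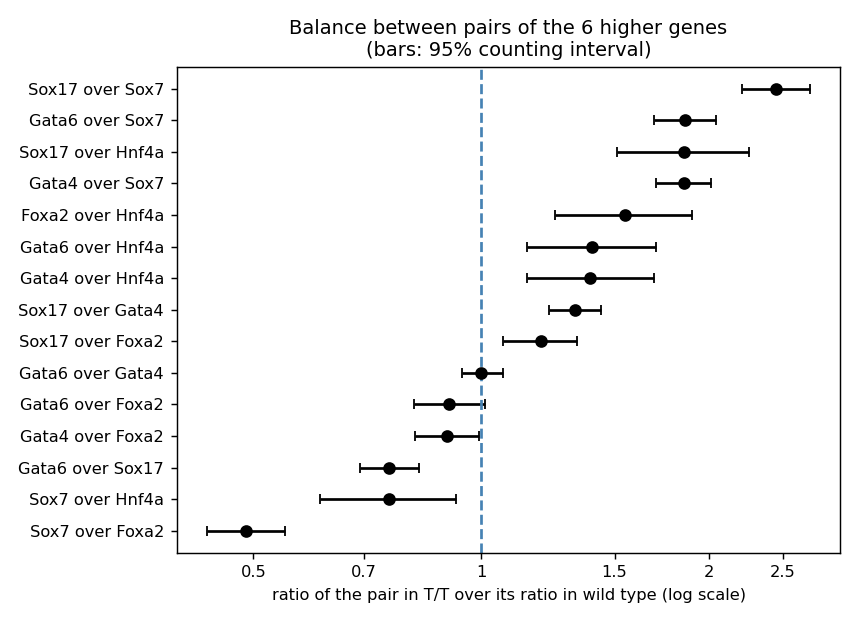
For the 15 pairs among the 6 higher genes, the ratio of their reads in T/T cells over that in WT cells, on a log axis with 95% counting intervals. Gata6 over Gata4 sits at 1.0, Sox17 over Sox7 at 2.45 and Sox7 over Foxa2 at 0.489.

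Levels of different genes were compared per kilobase of exon, using all exons of a gene in GENCODE M21. On this scale Gata4 came first in WT cells at 34.9 CPM per kilobase, then Sox7 (9.96), Foxa2 (9.38), Gata6 (9.21) and Sox17 (7.49), which lay close together. Foxa1 (1.67) and Hnf4a (1.09) were last. In T/T cells the order was Gata4 (379), Foxa2 (113), Sox17 (108), Gata6 (100.0) and Sox7 (58.5), with Hnf4a at 8.49 and Foxa1 at 0.0974 CPM per kilobase. The order of the middle genes depended on the length. With the longest transcript as the length, Gata6 came next after Gata4 in both libraries, at 15.8 and 173 CPM per kilobase, and Sox17 stood above Sox7 in WT cells too, at 11.0 against 9.96. The first place of Gata4 and the last places of Hnf4a and Foxa1 did not move.

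Within the GATA, SOX and forkhead families, few relatives of the higher factor genes were higher with them. The nuclear receptor family of Hnf4a was not counted. The GATA family had 3 other measured genes, of which none was higher. Gata2 was at 14.5 and 1.70 CPM and Gata3, a trophoblast factor, at 8.17 and 0.972 CPM, both lower, and Gata1 was at 1.21 and 0.446 CPM. None of the 14 other SOX genes was higher and 13 were lower. Sox2, the pluripotency factor, was at 518.1 and 30.9 CPM, and Sox15 at 26.8 and 0.810 CPM. Sox18, the third gene of the subgroup of Sox7 and Sox17, was low in both, at 1.13 and 0.243 CPM. Sox6 was the gene in between, at 0.921 and 1.05 CPM.

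Forkhead genes were more mixed. Of the 30 other than Foxa1 and Foxa2, 3 were higher, 13 lower and 14 in between. Foxq1 went from 30.3 CPM in WT cells to 401.3 CPM in T/T cells (13.2-fold, 12.3 to 14.3), above the fold of Foxa2. Foxf2 was at 4.02 and 43.8 CPM and Foxj2 at 24.9 and 133.0 CPM. Foxd3, a factor of the epiblast, was at 92.7 and 4.09 CPM and Foxi3 at 8.5 and 0.365 CPM. Foxa3, the third FOXA gene, was at 1.09 and 1.66 CPM, and its counting interval of 0.911- to 2.60-fold included no difference. Over all 47 other genes of the 3 families, 6.38% were higher and 59.6% lower, with a median log2 ratio of -1.53.

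**Figure D3:**
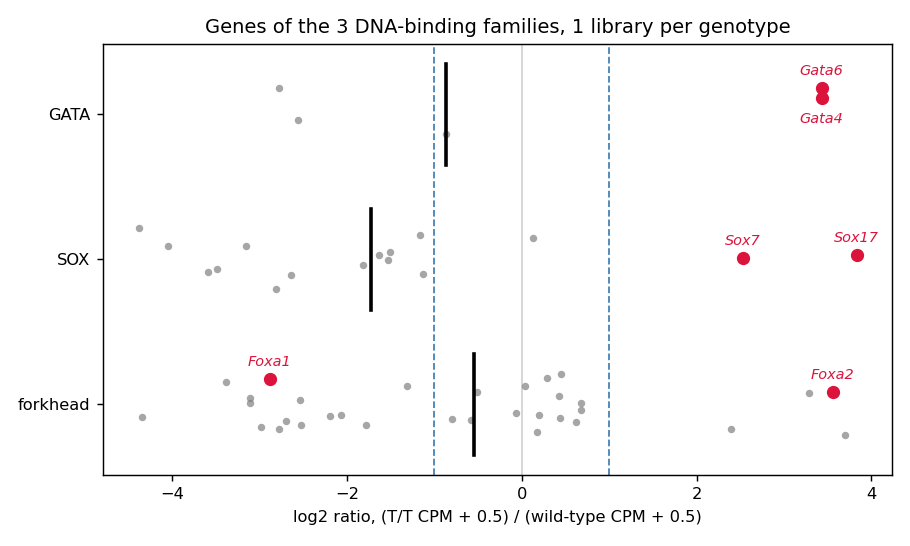
Log2 ratio of each measured gene of the GATA, SOX and forkhead families, with the 6 family members under study in red, family medians as black bars and dashed lines at 2-fold. Gata4, Gata6, Sox7, Sox17 and Foxa2 lie at 2.53 or more, while 3 other genes of these families pass 2-fold on that side.

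Other factors and cofactors of extraembryonic endoderm divided, with 11 of 26 higher, 9 lower and a median log2 ratio of 0.37, which was 0.85 with a minimum of 5 CPM and 0.14 after scaling to a common upper quartile. Tfec, a basic helix-loop-helix factor, was at 4.23 CPM in WT cells and 98.5 CPM in T/T cells. Foxq1 and Creb3l2, a factor of secretory cells at 37.7 and 387.1 CPM, followed. The GATA cofactor genes Zfpm1 (24.3 and 164.0 CPM) and Zfpm2 (1.42 and 0.365 CPM), chosen with their values known, went in different directions. At the other end, Nr5a2 was at 25.3 and 1.74 CPM and Foxp1 at 51.2 and 5.47 CPM.

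Receptor, ligand and ERK pathway genes upstream of GATA6 were higher in a share close to that of all genes. Of 21 FGF-ERK and PDGF genes measured at the minimum, 3 (14.3%) were higher and 10 (47.6%) lower, with a median log2 ratio of -0.66. Over all genes, 14.8% were higher and 20.6% lower. Pdgfra, a receptor gene of primitive endoderm, was at 23.4 and 243.5 CPM (10.4-fold, 9.55 to 11.4), a fold near those of Gata6 and Gata4. Fgfr3 was at 13.1 and 81.5 CPM and Dusp4, an ERK phosphatase gene, at 82.1 and 262.0 CPM. Fgf4, the epiblast ligand, was 15.0-fold lower at 360.7 and 24.1 CPM. Etv5, which responds to ERK, was at 258.1 and 27.3 CPM. The receptor genes Fgfr1 (147.3 and 35.9 CPM) and Fgfr2 (19.1 and 29.9 CPM), chosen with their values known, went in different directions.

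Of 12 epiblast factors 8 were lower and none was higher, with a median log2 ratio of -3.05. Nanog, the factor that opposes GATA6, was at 782.5 CPM in WT cells and 48.8 CPM in T/T cells. Per kilobase of exon, Gata6 was at 0.0264 of Nanog in WT cells and 4.61 times Nanog in T/T cells, a 175-fold shift (161 to 189). Nr0b1 was at 339.8 and 16.4 CPM. The Gata6 level set against Pou5f1, a factor also present in early primitive endoderm, shifted 56.4-fold (53.0 to 59.9). Klf4 (591.1 and 513.7 CPM), Tbx3 (218.9 and 255.6 CPM), Sall1 (97.5 and 158.4 CPM) and Zfp42 (58.5 and 37.4 CPM) were the 4 in between.

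Genes that mark the differentiation of primitive endoderm stood higher for 22 of 27 and lower for 1, with a median log2 ratio of 2.69, below that of the 7 factors. The laminin gene Lama1 was at 823.3 and 10036 CPM, the signal gene Ihh at 4.86 and 58.0 CPM and the collagen hydroxylase gene P4ha1 at 73.9 and 811.7 CPM. Their folds of 12.2, 11.9 and 11.0 were close to those of Gata6, Gata4 and Foxa2. Rbp4 (1.55 and 0.405 CPM) was the lower gene. Parietal endoderm markers, of which 10 are shared with that list, were higher in 18 of 21 cases with a median of 2.70. Stra6, a retinol receptor gene, was at 6.36 and 121.0 CPM, while Thbd, another parietal marker, was lower at 47.1 and 20.0 CPM. Visceral endoderm markers were divided: 12 of 26 were higher and 6 lower, with a median of 0.50 that became 1.65 with a minimum of 5 CPM. Another 8 of the 34 visceral markers, Afp among them, had no row and were not analysed here.

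Genes listed as HNF4A targets of liver and visceral endoderm were counted next. Of 10 measured among 26 on the list, 1 was higher and 7 were lower. The shares over all genes were 14.8% higher and 20.6% lower. Of the lower genes, Apoa1, Rbp4, Trf, Apob and Cdx2 were below 1 CPM in T/T cells and reached the minimum through WT cells alone. All of these but Cdx2 were at 1.09 to 1.72 CPM in WT cells. The median log2 ratio was -1.27, or -1.48 with a minimum of 5 CPM. The summed levels were 58.8 and 50.1 CPM. Whether HNF4A targets follow Hnf4a was not tested. The full list of 26 shares 10 genes with the visceral marker list, so the 2 counts overlap. The apolipoprotein gene Apoa2 was at 13.3 CPM in WT cells and 2.03 CPM in T/T cells. The apolipoprotein genes Apob (1.72 and 0.365 CPM) and Apoa1 (1.09 and 0.284 CPM), chosen with their values known, rest on 9 and 7 T/T reads. Other apolipoprotein genes, from the visceral marker list, differed: Apom was higher (0.670 and 3.93 CPM) and Apoe in between (1645 and 1274 CPM). Cdx2, on the HNF4A target list and also a trophoblast factor, was at 6.28 and 0.324 CPM. Ttr, which encodes a thyroid hormone carrier and is an early visceral endoderm marker, was at 6.57 and 8.06 CPM. The higher gene was F2, for prothrombin, at 1.05 and 3.0 CPM, and Mttp, needed for lipoprotein assembly, was at 16.2 and 32.2 CPM.

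**Figure D4:**
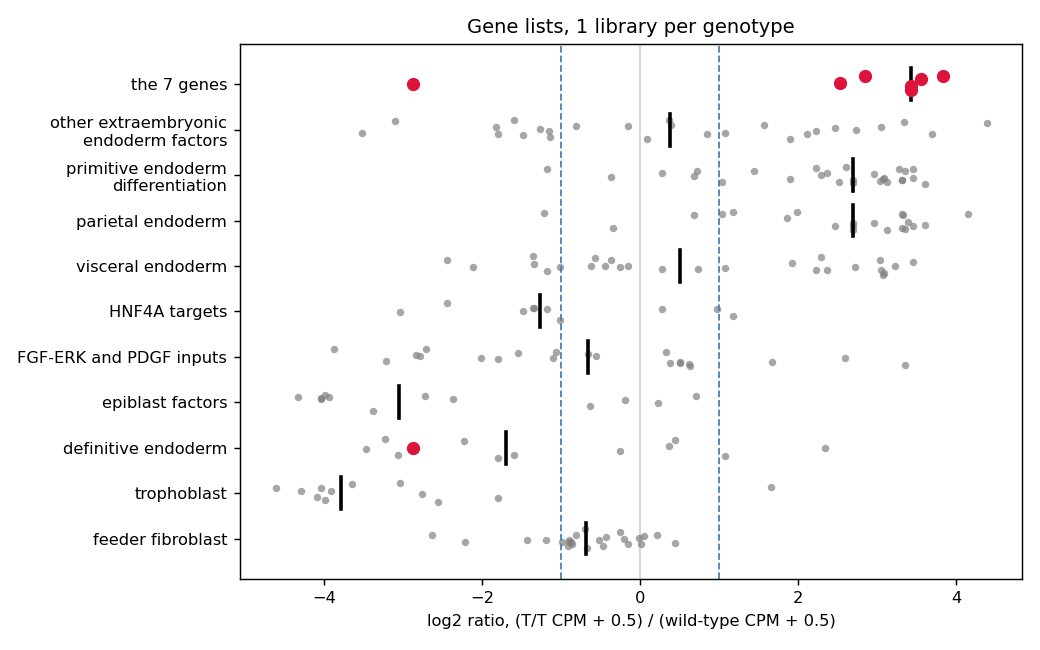
Log2 ratio of each measured gene by list, 1 grey point per gene, with the 7 factor genes in red, list medians as black bars and dashed lines at 2-fold. The medians of the primitive and parietal endoderm lists (2.69 and 2.70) lie on the higher side and that of the HNF4A targets (-1.27) on the lower side.

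Markers of other tissues in which these factors act were counted in the same way. Definitive endoderm and anterior streak markers, a list that includes Foxa1, included 7 lower and 2 higher genes of 12, with a median log2 ratio of -1.70 and summed levels of 344.1 and 296.7 CPM. Sox21, Tmprss2 and Cxcr4 were lower with Foxa1, and Kit (41.3 and 211.2 CPM) and Hhex (18.0 and 38.5 CPM) were higher. T and Mixl1 were not among the listed genes. Of 14 cardiac genes tested 3 were higher and 7 lower, and the 16 listed genes together had summed levels of 59.7 and 35.3 CPM. Tnni1 had the largest ratio, at 1.55 and 14.1 CPM, and the heart factor gene Nkx2-5 was at 4.56 and 0.162 CPM. Floor plate and node markers, a list that includes Foxa2, were higher in 2 of 8 cases, Foxa2 itself and Nog (3.14 and 32.0 CPM), and Shh had no row. Of 12 trophoblast genes 11 were lower, and their summed level was 1144 CPM in WT cells and 203.7 CPM in T/T cells. Esrrb, which the epiblast list also holds, made up 818.2 and 49.3 CPM of these sums, and Plet1, the higher gene, 40.9 and 130.6 CPM. Of 24 feeder fibroblast markers none was higher and 4 were lower, at summed levels of 2287 and 1397 CPM. The part of any of these cell types in the levels of the 7 genes was not tested.

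Genes next to Gata4, Sox7, Hnf4a and Foxa1 on the chromosome did not share their folds. Within 100 kb of the 7 genes the table listed 10 other genes, of which 1 was higher, 1 lower and 8 in between. Over all genes, 14.8% were higher and 20.6% lower. Beside Gata4, Neil2 (8.92 and 10.6 CPM) lies 5.39 kb away, Fdft1 (51.5 and 102.4 CPM) 21.1 kb and Ctsb, a cathepsin gene (489.5 and 1155 CPM), 55.8 kb away. Ctsb was the higher gene, at 2.36-fold against 10.8-fold for Gata4. Beside Sox7, Pinx1 was at 22.1 and 18.2 CPM.

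Beside Hnf4a, Ttpal was at 30.9 and 33.2 CPM, Serinc3 at 203.5 and 345.8 CPM, Pkig at 22.3 and 15.6 CPM and Fitm2 at 29.7 and 24.3 CPM. Gdap1l1, the lower gene, was at 1.55 and 0.284 CPM. Beside Foxa1, Mipol1 was at 3.27 and 3.0 CPM. Gata6, Sox17 and Foxa2 had no other listed gene within this distance.

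**Figure D5:**
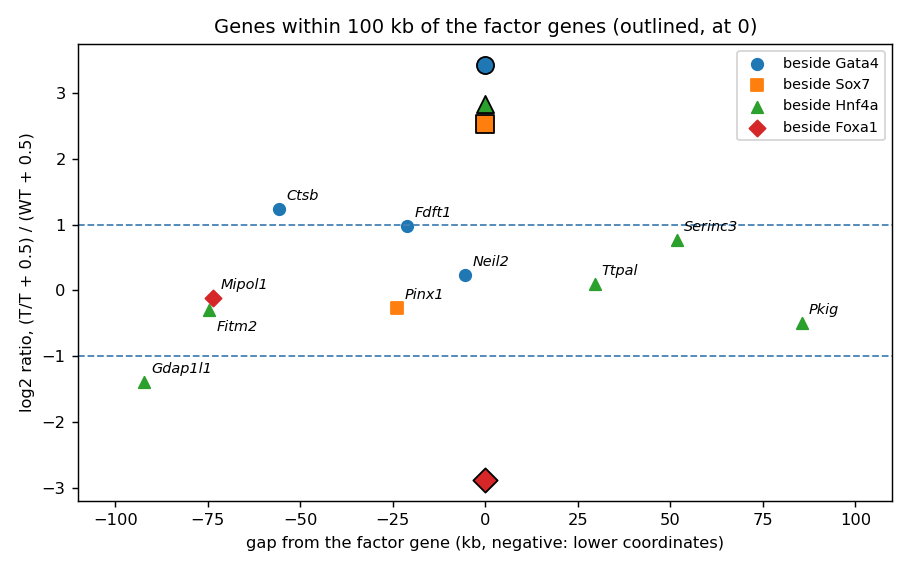
Log2 ratio of the 10 listed genes within 100 kb of Gata4, Sox7, Hnf4a and Foxa1 against their gap in kb, with the factor genes outlined at 0 and dashed lines at 2-fold. Ctsb (1.24) and Gdap1l1 (-1.39) are outside the dashed lines, and no neighbour comes within 1 unit of its factor gene.

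For each factor the genes with the most similar pair of values were found, by the distance between log2(CPM + 0.5) values over the 2 libraries. Gata4 stood most alone, with 2 genes within a distance of 0.5, Slc7a6 (127.9 and 1230 CPM) and Qsox1 (103.8 and 1356 CPM). Gata6 had 3 within that distance, of which Tinagl1 (73.7 and 589.8 CPM) and P4ha1 were nearest. Nearest to Sox17 were Nxf7 (37.5 and 474.2 CPM) and Lgals9 (37.1 and 404.2 CPM), among 6. Foxa2 had 17, led by Tcf23 (21.3 and 281.2 CPM) and the VEGF receptor gene Flt1 (21.0 and 277.2 CPM). Sox7 had 54, led by Fam198b and Ets1 (30.8 and 204.4 CPM), and Hnf4a had 29, led by Prkaa2 and Car8. Foxa1 had 151, with Ubxn10 (5.61 and 0.324 CPM) and Neurod1 (5.40 and 0.324 CPM) nearest. With 2 libraries, such likeness says no more than that the values are close.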

How the data were processed

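Polyadenylated RNA of 1 wild-type and 1 Fbxl10 T/T culture was measured. Per the submitters' processing notes, TopHat 1.4.1, HTSeq 0.5.3p9 and edgeR were used with build mm9; which annotation and strand setting went with them is not stated in the sources used here. The table deposited by the authors gives a signal per gene and library, called CPM here, and a log2 ratio by the authors (WT over T/T), which is not used. All signal values (100%) were whole multiples of 1 step per library within 0.01 reads, so the reads behind them could be recovered, with 1 read equal to 0.0419 CPM in WT cells and 0.0405 CPM in T/T, and 3 reads set limits of 0.126 and 0.122 CPM. The 24706 rows hold 13620 genes, and repeated rows were used once. Symbols came from GENCODE M21 for 13443 of them, otherwise from the table; the 7 genes matched by the table's own symbols.

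Genes that reached 1 CPM were sorted into 2-fold higher, 2-fold lower and in between on log2(CPM + 0.5). Because the unit was a signal and there was 1 library per genotype, no test of genotypes was made. An exact binomial test of recovered reads with Benjamini-Hochberg adjustment, which compares the libraries and not the genotypes, put 5780 genes on the higher and 5564 on the lower side at a 0.05 threshold of the adjusted p. Intervals and limits cover counting error only, as PCR copies are not independent molecules. Named are the 7 genes, their listed paralogues, up to 3 genes with the largest and 2 with the smallest log2 ratio of a list or family, all listed genes within 100 kb of a factor gene, the 2 genes nearest in value to each, and Kdm2b. Other names were added after their values were seen: Zfpm1, Fgfr1, Fgfr2, Pou5f1, in-between epiblast genes, Foxa3, Sox2, Sox6, Thbd, Apob, Apoa1, Nkx2-5, Cxcr4 and Nog. Zfpm2, Apom, Apoe, Nanog, Esrrb and Pecam1 were also named outside this rule, with their values known. Some genes on the lists are counted but not reported by name here. The 7 genes and the 14 other lists were chosen with earlier results of these data known, and genes can sit on several lists. Alternatives were other pseudocounts, minimum values, scalings and fold thresholds, and the binomial test. The steps were tested on simulated reads. The work was done in Python 3.11.15 (scipy 1.17.1, pandas 2.3.3, numpy 2.4.6, matplotlib 3.10.9).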

Additional observations from a re-analysis of the deposited data

How the results depend on the processing

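No paired analysis was possible because each genotype had a single library, and none could be left out. Under every alternative run, 6 of the 7 factor genes were counted as higher and Foxa1 as lower, at fold thresholds of 1.5 and 4 too, and all 42 single-gene log2 ratios kept their direction. Rescaling T/T to a common median or upper quartile, by 0.13 or 0.24 on the log2 scale, moved the median of the 7 genes from 3.43 to 3.30 or 3.19 and that of all genes from 0.02 to -0.11 or -0.21. The lowest and highest log2 ratios over all alternatives were 3.59 and 3.84 for Sox17, 2.30 and 2.55 for Sox7, and -3.74 and -2.31 for Foxa1, whose 8 reads in T/T make it the most dependent on the pseudocount. Over all genes, 3582 were higher at a threshold of 1.5-fold and 519 at 4-fold, 1229 were lower at 4-fold, and 1737 were lower with a minimum of 5 CPM, which leaves fewer genes. That minimum, by leaving fewer genes, also reversed the medians of the floor plate and node (1.33), cardiac (0.06) and endothelial (2.33) lists, and 81 of 84 list medians kept their direction.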

Other observations

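Endothelial genes, which share SOX7 and SOX17 as regulators, divided. Of the 17 measured, 7 were at least 2-fold higher in T/T cells and 9 lower, with a median log2 ratio of -1.13 that became 2.33 with a minimum of 5 CPM. Esam, a junction gene, was at 7.96 CPM in WT cells and 120.3 CPM in T/T cells. The VEGF receptor genes Flt1 (21.0 and 277.2 CPM) and Kdr (2.64 and 36.5 CPM) were also higher. Among the lower genes, Robo4 was at 11.1 and 0.122 CPM and Eng at 128.6 and 6.48 CPM. Pecam1, a general endothelial marker chosen with its value known, was at 73.7 and 3.89 CPM, and Erg, Fli1, Emcn and Etv2 were not among the listed genes.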
